A study of Gallus gallus with 10 samples.

Results

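A set of 6 Z-linked genes of neuron development and synapse was followed in whole brains of chicken embryos: GRP, TCF4, MEF2C, CELF4, HOMER1 and PCSK1. They were chosen by name, as genes whose platform annotation gives one of these symbols and whose chromosome in a reference gene table (assembly bGalGal1.mat.broiler.GRCg7b) is Z. The names were chosen with earlier results of these data known. All 6 were measured, by 17 probe sets, out of 13051 genes in the series, of which 606 lie on Z. RNA from dissected whole brain of Gallus gallus embryos was hybridised to single-sample Affymetrix chicken arrays, 5 for males (ZZ) and 5 for females (ZW). No treatment beyond dissection is named and no genetic change is named in either sex, while the sources used here give neither embryonic age and breed nor the number of embryos behind a sample. Separate embryos are not stated either, so p-values are set against the spread of these samples only, and some of that spread may be technical.

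In birds the male is the sex with paired Z chromosomes and the female carries a single Z, and no mechanism silences a whole Z in males the way one X is silenced in female mammals. Z genes therefore range from those whose RNA follows the copy number to those with like RNA levels in both sexes. The 6 genes act at different steps of a neuron's life: TCF4 (an E protein that pairs with proneural bHLH factors) and MEF2C (an activity-regulated MADS-box factor) control transcription, CELF4 binds neuronal mRNAs, HOMER1 holds metabotropic glutamate receptors to the postsynaptic scaffold, PCSK1 cuts prohormones into active peptides, and GRP is such a peptide. The comparison asks how far each of them followed Z copy number, where a log2 difference of 0 means equal levels in the sexes and 1 a 2-fold male excess.

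Values are log2(intensity + 16), a scale that lowers the fold change of dim genes, and the brightest probe set of a gene, by its mean over all 10 arrays, stands for it. A gene was called expressed if that mean was at least 9.33, the median of the 38439 probe sets tested. Differences are male minus female from limma fitted to all genes, with adjusted p by Benjamini-Hochberg over all genes. The title of male replicate 1 names no sex, unlike those of the other arrays, and its sex was taken from its description. The W-linked HINTW was read to check the sex labels. It ran from 16.53 to 16.94 on the female arrays and from 4.94 to 8.92 on the male arrays, which fits the labels on all 10 arrays. The median difference was 0.47 over the 445 expressed Z genes, with quartiles of 0.25 and 0.77, and -0.02 over the 8728 expressed autosomal genes. All of the 6 genes but PCSK1 were expressed.

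The expressed genes are described in 2 groups, which were drawn after their values were seen and were not tested as groups. By the probe set that stands for each gene, every male lay above all females for GRP, TCF4 and MEF2C. Their male to female ratios were 1.64, 1.58 and 1.37, against a median ratio of 1.39 over expressed Z genes. None of these genes was told apart from the Z median. CELF4 and HOMER1 had ratios of 1.05 and 0.968 with narrow intervals, and both lay below the Z median by a tested amount. For each of them that call ended in 2 of 26 alternatives. The 26 include the exact permutation, which was read by its unadjusted p. PCSK1 was too dim and its probe sets too discordant to place. By limma 1 of the 6, TCF4, was higher in males with the adjustment over all genes, and 0 were higher in females, where the lower of the 2 unadjusted p-values of negative differences was 0.139, for PCSK1. The shares over all genes were 1.59% higher in males and 0.207% in females, and over Z genes 33.2% were higher in males. In 3 of the 6 genes every male array exceeded every female array, against 42.1% of Z genes, dim ones included, and 52.4% of expressed Z probe sets. The median difference over the 6 genes was 0.26.

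**Figure D1:**
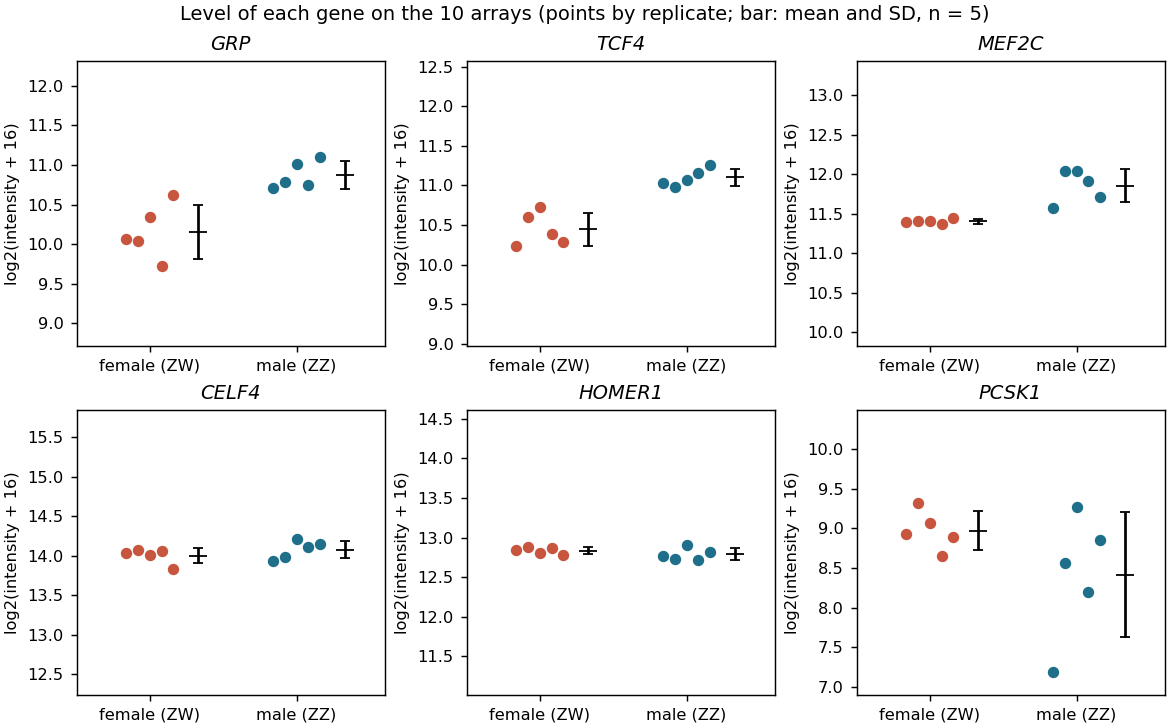
Log2(intensity + 16) of each gene on the 5 female and 5 male arrays, 1 point per array in order of replicate number, with the mean and SD of each sex beside the points; every panel spans the same number of log2 units. With each gene read by its brightest probe set, all males lie above all females for GRP, TCF4 and MEF2C. The sexes overlap for CELF4 and HOMER1, and PCSK1 is scattered, with male replicate 1 at 7.19.

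TCF4, the gene for a class I bHLH factor whose human counterpart is altered in Pitt-Hopkins syndrome, was the member that passed the threshold. Its log2 levels on male replicates 1 to 5 were 11.03, 10.98, 11.07, 11.16 and 11.26, and on female replicates 1 to 5 they were 10.24, 10.60, 10.72, 10.38 and 10.28. The lowest male exceeded the highest female. The male mean of 11.10 ± 0.11 stood against a female mean of 10.44 ± 0.21 (SD, n = 5 per sex), which is a difference of 0.66 (SE 0.11, 95% interval 0.42 to 0.90, limma adjusted p = 0.0121). The interval of the ratio, 1.33 to 1.86, left out both equality and a 2-fold excess. Of the expressed Z genes 6.52% had a difference of at least 1, so falling short of a 2-fold excess is not particular to TCF4. A further expressed probe set of TCF4 gave 0.63 (SE 0.19, 95% interval 0.20 to 1.05), and that interval did hold a 2-fold excess. It read 10.14 to 10.32 in males and 9.09 to 10.18 in females, so that 4 of 5 males lay above all females. The remaining probe set averaged 6.46, under the level of 7.61 that 95% of 683 background probe sets with identifiers of viral sequences did not exceed, and differed by 0.060 (SE 0.73). Averaging all 3 probe sets, the dim one included, gave 0.45 (limma adjusted p = 0.747), and averaging the 2 expressed ones gave 0.64 (limma adjusted p = 0.0121). The difference lost the call on the 8 arrays whose titles carry a letter found in both sexes (0.62, limma adjusted p = 0.0706), and kept it without any 1 of the 10 arrays.

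GRP encodes gastrin-releasing peptide, a bombesin-like neuropeptide that signals through a G-protein-coupled receptor. Male replicates 1 to 5 had log2 levels of 10.70, 10.79, 11.02, 10.74 and 11.10, and female replicates 1 to 5 had 10.06, 10.04, 10.35, 9.72 and 10.63. No male value fell inside the female range, although female replicate 5 came close to the lowest male. The means were 10.87 ± 0.18 and 10.16 ± 0.34 (SD, n = 5 each), a difference of 0.71 (SE 0.16, 95% interval 0.34 to 1.08) that did not pass over all genes (limma adjusted p = 0.0845). With each gene read by its brightest probe set, GRP was the one of the 6 whose interval held a 2-fold excess. Its SE was also larger than that of TCF4 (0.16 against 0.11), which widens the interval. Without female replicate 5, the female nearest the males, the difference was 0.83 and passed (limma adjusted p = 0.0218). It did not pass when any other single array was left out (limma adjusted p from 0.122 to 0.208). On the 8 arrays whose titles carry a letter found in both sexes it was 0.73 (limma adjusted p = 0.28). GRP has 1 probe set on the array.

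MEF2C, needed for the development of excitatory neurons and also active in muscle, vessel and immune cells, had 3 expressed probe sets that gave similar differences. On the brightest, male replicates 1 to 5 read 11.58, 12.04, 12.04, 11.91 and 11.71 and female replicates 1 to 5 read 11.39, 11.41, 11.41, 11.37 and 11.44. The female values lay within a far narrower range than the male ones, with SDs of 0.028 and 0.21, and the sexes did not overlap. The difference was 0.45 (SE 0.097, 95% interval 0.23 to 0.67, ratio 1.37), just short of the threshold (limma adjusted p = 0.0548). Without male replicate 1 it was 0.52 and passed (limma adjusted p = 0.0156). It did not pass when any other single array was left out (limma adjusted p from 0.0754 to 0.147). The mean over the 3 probe sets gave 0.43 (SE 0.15, limma adjusted p = 0.452). The other probe sets gave 0.38 (SE 0.19, 95% interval -0.055 to 0.82) and 0.45 (SE 0.22, -0.041 to 0.93). Both of these intervals held 0, and 3 of 5 males lay above all females on each. On all 3 probe sets male replicates 2, 3 and 4 were higher than male replicates 1 and 5.

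CELF4, which binds and stabilises many mRNAs of synaptic proteins in mouse neurons, was measured at nearly the same level in both sexes. Male replicates 1 to 5 had log2 levels of 13.94, 13.99, 14.21, 14.11 and 14.14, and female replicates 1 to 5 had 14.04, 14.07, 14.02, 14.06 and 13.83. The ranges overlapped, with 3 of 5 males above all females. The difference was 0.076 (SE 0.076, 95% interval -0.094 to 0.25, limma adjusted p = 0.903), so a ratio above 1.19 lay outside the interval. The other 2 expressed probe sets gave 0.051 (SE 0.091, 95% interval -0.15 to 0.26) and 0.17 (SE 0.14, -0.15 to 0.50). The wider of these intervals held the median of expressed Z genes, 0.47. The last probe set averaged 6.23, below the same background level, and differed by -0.24 (SE 0.64).

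HOMER1, a scaffold gene with long constitutive and short activity-induced forms, had the smallest standard error of the 6 genes. Male replicates 1 to 5 read 12.77, 12.73, 12.90, 12.72 and 12.82, and female replicates 1 to 5 read 12.85, 12.88, 12.80, 12.87 and 12.77. The sexes overlapped, and 1 male lay above all females. The difference was -0.046 (SE 0.057, 95% interval -0.17 to 0.082, limma adjusted p = 0.921), an interval of the ratio from 0.886 to 1.06. The other expressed probe set, which ran from 11.90 to 12.13 in males and from 11.85 to 12.08 in females, differed by 0.063 (SE 0.081), so the sign of the HOMER1 difference depends on the probe set while its size stays small. The remaining, dim probe set, at a mean of 8.79, differed by 0.23 (SE 0.41). The sources used here do not say which of the 3 probe sets read the long or the short forms.

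PCSK1, also called prohormone convertase 1/3, was below the expressed level on all 3 of its probe sets. On the brightest, male replicates 1 to 5 read 7.19, 8.57, 9.27, 8.20 and 8.86, and female replicates 1 to 5 read 8.94, 9.33, 9.07, 8.65 and 8.89. The ranges overlapped and male replicate 1 was lowest. The difference was -0.56 (SE 0.34, 95% interval -1.33 to 0.22, limma adjusted p = 0.812), and the other probe sets gave -0.28 (SE 0.24) and 0.83 (SE 0.69). The last of these holds female replicate 1 at 4.93, with the other females at 7.87 or above. All 3 averages, 8.10 to 8.70, were above the background level of 7.61, but no size or direction for PCSK1 held across its probe sets.

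**Figure D2:**
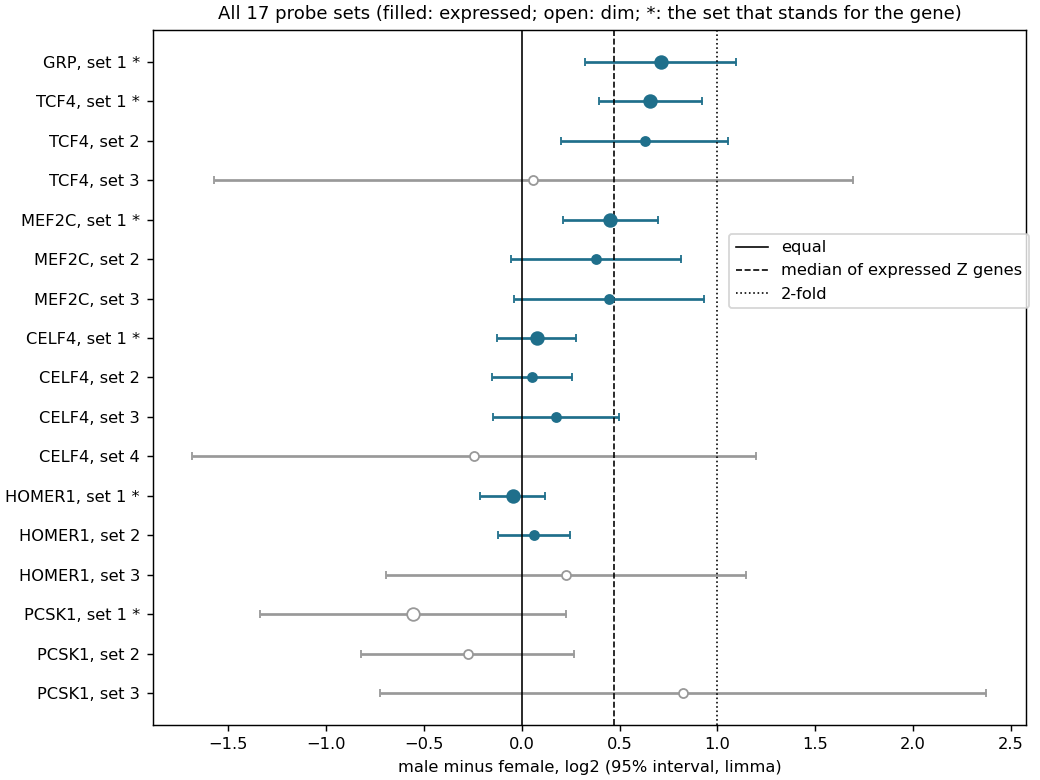
Male minus female difference (log2) of all 17 probe sets with 95% intervals from limma over all probe sets; filled points are expressed probe sets, open points dim ones, and lines stand at 0, at the median of expressed Z genes (0.47) and at a 2-fold male excess (1). The expressed probe sets of GRP, TCF4 and MEF2C lie between 0.38 and 0.71 and those of CELF4 and HOMER1 between -0.046 and 0.17, while the dim ones have wide intervals.

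Across all 17 probe sets 13 had a positive difference, and of the 11 expressed ones 10 did, against 78.8% of the 1181 Z probe sets and 92.9% of the 689 expressed ones. At this level 1 probe set, the brightest of TCF4, passed the adjustment over all probe sets (limma adjusted p = 0.0399), where 0.643% of the 38439 and 16.1% of those on Z were higher in males. In 3 of the 11 expressed probe sets every male exceeded every female, against 52.4% of expressed Z probe sets.

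Ordered by size, the sex differences ran from GRP over TCF4, MEF2C, CELF4 and HOMER1 to PCSK1, and 1 step in this order had a 95% interval that left out 0. The within-array difference between MEF2C and CELF4 changed between the sexes by 0.38 (SE 0.10, 95% interval 0.14 to 0.61). The other 4 steps had intervals that held 0: GRP over TCF4 by 0.054 (-0.35 to 0.46), TCF4 over MEF2C by 0.21 (-0.12 to 0.53), CELF4 over HOMER1 by 0.12 (-0.017 to 0.26) and HOMER1 over PCSK1 by 0.51 (-0.23 to 1.25). These intervals come from the same limma fit with the 5 within-array differences as added entries, and are not adjusted for their number. The order was taken from these same values, so every step is positive by construction. The intervals describe the steps and do not test the order or a split in it.

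Each gene was then set against the Z chromosome of the same arrays, by subtracting each array's median over expressed Z genes, the 5 expressed members among them. HOMER1 lay below the Z median by a male minus female value of -0.55 (SE 0.061, 95% interval -0.69 to -0.41, limma adjusted p = 0.000818 over Z genes). CELF4 lay below it at -0.43 (SE 0.082, 95% interval -0.61 to -0.24, limma adjusted p = 0.00568). For both, an exact permutation of the sexes over the arrays gave p = 0.00794, two-sided and the smallest this design allows. Both calls ended with the mean over all probe sets, dim ones included (limma adjusted p = 0.0939 for HOMER1 and 0.104 for CELF4), and held with the mean over expressed probe sets, an alternative chosen after seeing the data (0.000828 and 0.00649). PCSK1 was called below as well, at -1.06 (SE 0.35, limma adjusted p = 0.0497). That call on a dim gene ended in most of the alternatives run, whose limma adjusted p reached 0.296. It also ended when any 1 of male replicates 2, 4 and 5 or of the 5 females was left out (adjusted p up to 0.0981). MEF2C at -0.051 (SE 0.10, 95% interval -0.28 to 0.17), TCF4 at 0.15 (SE 0.11, -0.10 to 0.41) and GRP at 0.21 (SE 0.17, -0.17 to 0.59) were not told apart from the Z median (exact permutation p = 0.595, 0.214 and 0.262). Of the 6 genes, 3 were called below the Z median and 0 above it, counting PCSK1, whose call did not hold in most alternatives. Among all 606 Z genes, dim ones included, 13.7% were called below and 14.4% above. Among the 445 expressed Z genes, 4.94% had a lower sex difference than HOMER1, 10.1% than CELF4, 47.6% than MEF2C, 64.3% than TCF4 and 69.4% than GRP.

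The families of these genes have members off Z, with like copy number in the sexes, which allowed a comparison of each Z gene with its relatives. The relatives were taken from the lists used here, as all expressed members of the same family off Z, a choice made after values were seen. Of 13 such genes, 0 passed by limma and 0 had an unadjusted p under 0.05, and their differences ran from -0.13 to 0.089. Over all 13051 genes, Z genes included, 1.59% passed as higher in males and 0.207% as higher in females. Having 0 calls among 13 is therefore not particular to these relatives. The sex difference of TCF4 was larger than that of the mean of TCF3 and TCF12, the other E proteins, by 0.62 (SE 0.11, 95% interval 0.37 to 0.87). That of MEF2C was larger than that of the mean of MEF2A and MEF2D by 0.48 (SE 0.11, 0.23 to 0.73), and that of GRP was larger than that of NMB, which encodes the related peptide neuromedin B, by 0.81 (SE 0.16, 0.45 to 1.17). For CELF4 against the mean of CELF1, CELF2 and CELF5 this difference of sex differences was 0.13 (SE 0.11, -0.12 to 0.38), and for HOMER1 against HOMER2 and HOMER3 it was -0.059 (SE 0.076, -0.23 to 0.11). PCSK1 against PCSK2, PCSK6 and FURIN gave -0.62 (SE 0.32, -1.34 to 0.11). The median difference was 0.47 over expressed Z genes and -0.02 over expressed autosomal genes. A larger sex difference than that of relatives off Z is therefore not particular to TCF4, MEF2C and GRP. These comparisons add no support beyond each gene's own difference.

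**Figure D3:**
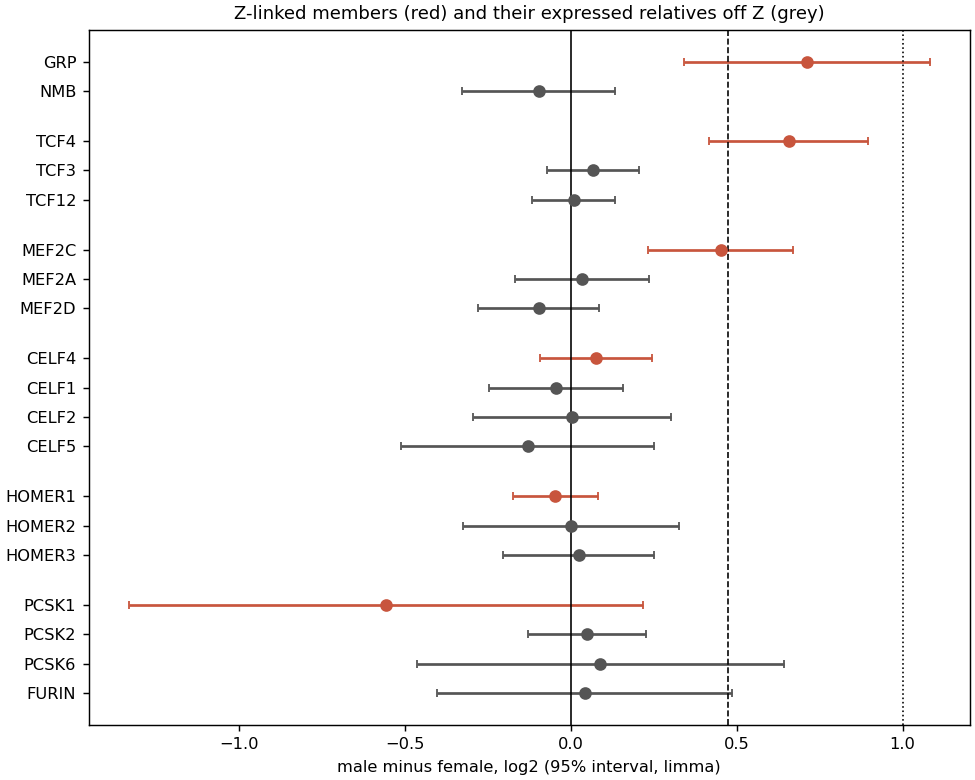
Male minus female difference (log2) with 95% intervals from limma over all genes for the 6 Z-linked genes (red) and the 13 expressed relatives off Z (grey), with lines at 0, at the median of expressed Z genes (0.47, dashed) and at a 2-fold male excess (dotted). The relatives lie between -0.13 and 0.089, where CELF4 and HOMER1 also lie, while GRP, TCF4 and MEF2C lie to the right of their relatives.

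Partners of the 6 genes, their relatives and other genes of like function that were not placed on Z showed no sex difference past the threshold. The lists that hold them are called partner lists. Over the 6 partner lists, 71 genes were measured and 66 of them were not placed on Z, counting 3 with no chromosome in the reference table (ATOH1, DLGAP1 and SCG2). The expressed relatives of the preceding paragraph are among these 66. Of the 66, 0 passed by limma and 0 had an unadjusted p under 0.05. The median difference of these 66 genes was 0.026, and 40 of 66 were positive. The medians of single lists, here and in the next paragraph, count the Z genes of a list. Of all 13051 genes, 207 were higher in males, 201 of them on Z, and 27 were higher in females. Having 0 calls off Z is therefore not particular to these genes. An unadjusted p under 0.05 was found for 995 of the 13051 genes by limma. The 14 measured genes of E proteins, ID inhibitors and proneural factors, none placed on Z, had a median of 0.11, and 11 were positive. The brightest were TCF12 at 0.0093 (SE 0.056) and ID2, an inhibitor that binds E proteins, at 0.16 (SE 0.12). The list of MEF2 factors with their regulators had 12 genes and a median of 0.027. Its brightest were the calcineurin subunit genes PPP3R1 at 0.0061 (SE 0.076) and PPP3CA at -0.036 (SE 0.092), while CAMK4 on Z, a calcium-dependent kinase gene, differed by 0.021 (SE 0.10, limma adjusted p = 0.982). Among 12 neuronal RNA-binding protein genes (median -0.02) the brightest, NOVA1 and ELAVL4, differed by 0.036 (SE 0.065) and 0.16 (SE 0.27). ELAVL2 on Z was higher in every male than in any female at 0.25 (SE 0.059), short of the threshold (limma adjusted p = 0.0886).

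The postsynaptic and peptide lists gave the same count. Of 11 genes of Homer partners and postsynaptic scaffold, none placed on Z, the median was -0.012, with DLGAP4 at 0.11 (SE 0.094) and the scaffold gene SHANK2 at -0.092 (SE 0.057) as the brightest. GRM5, the gene for a glutamate receptor that binds HOMER1 protein, differed by -0.012 (SE 0.12). Among 14 genes of prohormone processing and dense-core granules (median 0.059), the granin genes SCG2 and SCG5 were brightest, at 0.036 (SE 0.060) and -0.0065 (SE 0.055). On Z, PAM, the enzyme gene for peptide amidation, had every male above every female at 0.43 (SE 0.10, limma adjusted p = 0.0928), and the convertase gene PCSK5 differed by 0.12 (SE 0.086, limma adjusted p = 0.859). Of the 8 genes of bombesin-like peptides and their signalling (median -0.035), PLCB1 was at 0.056 (SE 0.15) and GNAQ on Z at 0.29 (SE 0.083, limma adjusted p = 0.216). GRPR, the receptor for GRP, was at -0.50 (SE 0.23, limma adjusted p = 0.685), with no claim to a direction at this error. The Z genes of these lists, GRM5 and GRPR were named after their values were seen.

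Of 21 other Z-linked neuronal genes, 3 were higher in males, against 33.2% of all Z genes, dim ones included, and 18 did not pass. SNCAIP, which encodes the synuclein-binding protein synphilin, differed by 0.74 in favour of males (SE 0.097, limma adjusted p = 0.00303), the neuronal GTPase gene RIT2 by 0.70 (SE 0.13, adjusted p = 0.03) and the transcription factor gene NFIB by 0.47 (SE 0.093, adjusted p = 0.0349). The brightest of the list, the synaptotagmin gene SYT4 at 0.28 (SE 0.084) and ELAVL2, did not pass. The list, with 20 of 21 genes expressed, had a median of 0.26, against 0.47 over all expressed Z genes. Of its 21 differences 19 were positive, against 82.3% over all Z genes, dim ones included, and 92.9% of expressed Z probe sets. Every male exceeded every female in 8 of the 21, against 42.1% of all Z genes and 52.4% of expressed Z probe sets. Against the Z median, 6 were called below (EFNA5, ELAVL2, MAP1B, CAMK4, SV2C and VLDLR, with limma adjusted p over Z genes from 0.00207 to 0.0147), where 13.7% of all Z genes were. None of the list was called above, where 14.4% of all Z genes were. Both shares include dim genes. MAP1B, a neuronal microtubule gene, lay 0.50 below it (-0.50, SE 0.073) and SV2C, a synaptic vesicle gene, differed from it by -0.64 (SE 0.095), values close in size to that of HOMER1. The others called below ran from -0.48 for CAMK4 to -0.25 for ELAVL2. The genes called below were named after their values were seen. The list was chosen with earlier results of these data known, so its counts are a description.

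Position on Z was read as gene order only. TCF4 was the first measured gene on Z in the reference order, with GRP at place 12 of 606, CELF4 at 41, HOMER1 at 218, PCSK1 at 471 and MEF2C at 489. Between TCF4 and GRP lay 10 measured genes, and 17 between PCSK1 and MEF2C. Neighbours did not share one size of difference. Of the 10 expressed genes around CELF4, 5 on each side, 6 were higher in males by limma, and they ran from 0.16 for DCAF12L2 to 1.22 for NUDT2, so that 0 of 10 lay below CELF4 itself. Around HOMER1 the 10 neighbours ran from -0.21 for THBS4 to 1.06 for CDK7 with a median of 0.32, 2 were higher in males and 1 lay below HOMER1. Over all 606 Z genes, dim ones included, 33.2% were higher in males, and whether these regions differ from that share was not tested. Between HOMER1 and the sex-determining gene DMRT1 lay 49 measured genes, 35 of them expressed. MEF2C lay under 9 of its 10 neighbours, which had a median of 0.65 and ran from -0.0071 for EDIL3 to 1.02 for CETN3. TCF4, with 5 neighbours on one side, was above 4 of them (WDR7 at 0.19 to TXNL1 at 0.77), and GRP was above 6 of its 10 (LMAN1L at -0.063 to C18orf32 at 0.92). PCSK1 was below all 10 of its neighbours (MEGF10 at 0.15 to ARSK at 1.09), with the limits given for its level.

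**Figure D4:**
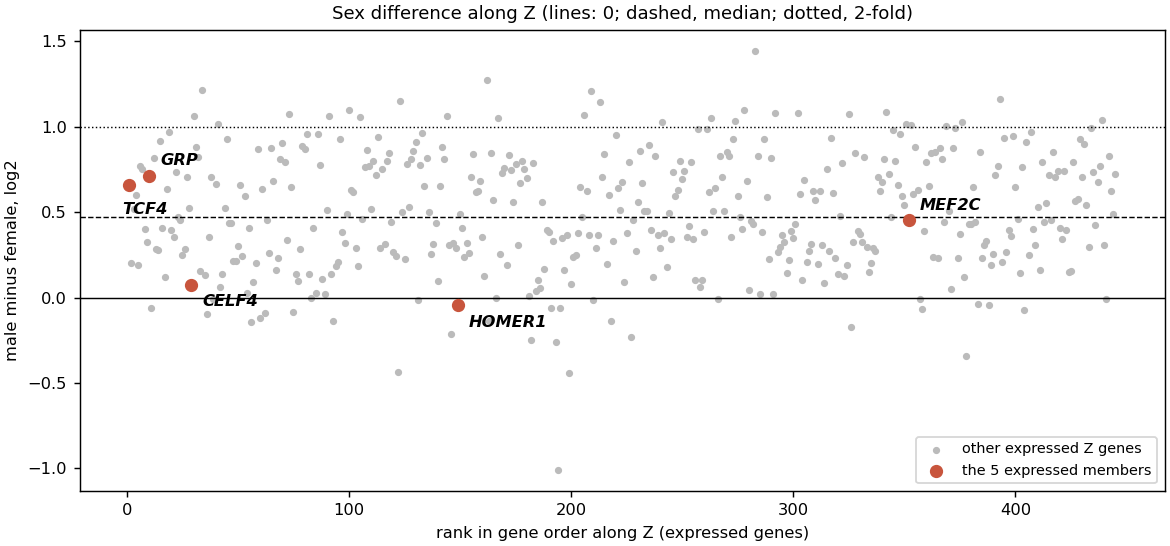
Male minus female difference (log2) of the 445 expressed Z genes (grey) by rank in gene order along Z, with the 5 expressed members in red, and lines at 0, at the median of 0.47 (dashed) and at a 2-fold male excess (dotted). TCF4 and GRP lie near one end of the order at 0.66 and 0.71, CELF4 and HOMER1 lie near 0 among neighbours of mixed size, and MEF2C lies near the median.

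The genes most like each member over the 10 arrays were found by Pearson's r of log2 levels among the expressed genes, given as a description, since the highest of 9286 values are high by selection and the arrays are shared. For TCF4 they were ZFYVE16 (r = 0.958), FAM151BL and PPWD1, for GRP they were ZDHHC21 (r = 0.921), STARD4 and FANCC, and for MEF2C they were CLTA (r = 0.957), ATP5F1AZ and DIRAS2, all on Z. Of the 50 most alike, 50 were on Z for TCF4, 46 for GRP and 45 for MEF2C, where 4.79% of expressed genes are on Z. The arrays of both sexes enter r, so genes with a male excess resemble each other through that excess, and these counts are no evidence beyond the sex difference. For CELF4 they were FARS2 (r = 0.869), PCSK2 and the Z gene GRIN3A, with 5 of 50 on Z. For HOMER1 they were IWS1 (r = 0.942), NDC1 and MAP3K7CL, with 0 of 50 on Z, and for PCSK1 they were SLC6A7 (r = 0.978), KIAA0232 and COG6, with 1 of 50.

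Markers of neurons and of other cells were checked, since the RNA came from whole brain, where fewer cells of a type and less RNA per cell cannot be told apart. Of 63 marker genes in 12 lists, 49 were expressed, 0 passed by limma and 3 had an unadjusted p under 0.05. These, named after their values were seen, were GJA1 at -0.23 (SE 0.10), TEK on Z at 0.21 (SE 0.081) and TYR at -0.43 (SE 0.17). Over all 13051 genes, 1.59% passed as higher in males and 0.207% as higher in females, and 995 had an unadjusted p under 0.05. The 9 neuron markers had a mean log2 level of 14.27 to 14.71 in males and 14.31 to 14.68 in females, and the ranges of the sexes overlapped. STMN2 and SNAP25 were the brightest. Male replicate 1 had the lowest of these means over both sexes. Vessel markers, of cells that also use MEF2C, had means of 11.82 to 11.94 in males and 11.80 to 11.94 in females. Pituitary markers, of cells rich in PCSK1, had means of 7.58 to 8.50 in males and 7.97 to 8.42 in females, and 1 of 5 was expressed. Muscle markers had means of 8.04 to 8.83 in males and 7.83 to 9.64 in females. List medians of the sex difference ran from -0.24 (pituitary) to 0.047 (microglia and leukocytes), and the part of cell composition in the values of the 6 genes was not tested.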

How the data were processed

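The authors deposited linear intensity values for 38535 probe sets on 10 arrays. The sources used here do not name the software that made them. The mean after trimming 2% of values at each end was 2500 on every array, so the deposited intensities had been scaled per array, and array medians lay between 592 and 720. Precision is limited by how many arrays there are. Values were used as log2(intensity + 16) without further normalization, after leaving out 96 control probe sets. Of the rest, 27168 had 1 gene symbol in the platform annotation, 177 several and 11094 none. Of 13051 genes, 12872 matched the reference gene table (bGalGal1.mat.broiler.GRCg7b) by gene identifier, which gave current symbols, chromosomes and gene order. No coordinates are printed, since the sources used here name no genome build for the array, and no sequences were used.

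Male and female arrays were tested against each other by limma 3.58.1 (R 4.3.3, functions lmFit and eBayes) over all genes, over all probe sets, and over all genes after subtracting each array's median of expressed Z genes (each gene centred on its own mean first), the last adjusted over Z genes. The threshold was an adjusted p under 0.05. The fits were tested on simulated data. Alternatives changed the pseudocount, normalization, probe sets, variance model, array weights, filter, arrays left out and a block of title letters. The members, lists and tests were chosen with earlier results of these data known. Named are all members and their probe sets, list genes past the threshold (at most 5) and the 2 brightest of each partner list, the lowest and highest of the neighbours (5 expressed genes on each side) and the 3 genes most alike; other names are marked as chosen after their values were seen.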

Additional observations from a re-analysis of the deposited data

Results flagged for a closer look

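In the 34 groups of 5 arrays formed by the 17 probe sets and the sexes, 2 held an array far from the other 4, by Dixon's ratio of that array's gap to the group's range at the 95% level. Chance gives about 1 in 20 such groups. On the brightest CELF4 probe set female replicate 5 read 13.834, with the nearest female at 14.015. On the third PCSK1 probe set female replicate 1 read 4.931, with the nearest female at 7.872, on the probe set whose difference was 0.83 (SE 0.69). The cause of either value was not tested.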

How the results depend on the processing

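The 6 sex differences kept direction and side of the threshold in 123 of 137 alternatives. The values relative to the Z median kept both in 130 of 155. The 155 include the exact permutation, which was read by its unadjusted p. Where a value changed, the cause was not tested unless the construction of the alternative shows it. TCF4 fell short with the mean over its probe sets, the dim one included (0.45), and on the 8 lettered arrays (0.62). MEF2C passed after centring on autosomal genes (0.47), with a variance trend or with only expressed genes fitted (0.45 in both), with array weights (0.47) and on the 8 lettered arrays (0.52). GRP passed with a variance trend and with only expressed genes fitted (0.71 in both). HOMER1 changed sign, without a call, with the mean over probe sets (0.081) and, in an alternative chosen after seeing the data, over expressed probe sets (0.0086). Relative to the Z median, TCF4 changed sign with the mean over probe sets (-0.042), MEF2C on the 8 lettered arrays (0.016), and CELF4 (-0.48) and HOMER1 (-0.41) fell short with the mean over probe sets. PCSK1 lost its call with a pseudocount of 1 (-1.09), the mean over probe sets (-0.49) or over the expressed probe sets where a gene has any (-0.52), without probe sets of shared sequence and with robust variance (-1.06 in both), array weights (-0.98), the 8 lettered arrays (-0.76) and the median over all Z genes (-1.02). It has no value with only expressed genes fitted.

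Letters in the titles, B to E, occur once in each sex, and nothing says that they pair samples. Same-lettered arrays deviated together with correlations of 0.044, 0.13, 0.0097 and 0.004 over 8728 genes. With the letters as a replicate block on 8 arrays, TCF4 was 0.62 (limma adjusted p = 0.386), and relative to the Z median MEF2C was 0.016, CELF4 -0.38, HOMER1 -0.54 and PCSK1 -0.76, with none past the threshold. In that limma fit 0 genes were higher in males (537 at an unadjusted p under 0.05) and 1 in females, against 207 and 27 without the block. Genes higher in females numbered 16 with only expressed genes fitted, 17 on the 8 lettered arrays and 16 without female replicate 3.

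Leaving out 1 array at a time gave 0.61 to 0.73 for TCF4, 0.40 to 0.52 for MEF2C, 0.034 to 0.11 for CELF4, -0.075 to -0.029 for HOMER1, -0.77 to -0.25 for PCSK1 and 0.60 to 0.83 for GRP. Relative to the Z median it gave 0.097 to 0.23 for TCF4, -0.10 to 0.022 for MEF2C (positive without male replicate 1), -0.47 to -0.39 for CELF4, -0.58 to -0.53 for HOMER1, -1.28 to -0.75 for PCSK1 and 0.097 to 0.32 for GRP. Genes higher in males then numbered 149 to 198, and higher in females 16 to 29. Signal near background limits PCSK1 and the dim probe sets of TCF4, CELF4 and HOMER1.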
